A study of Mus musculus with 14 samples.

Results

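The 21 genes described here stood higher in every library of mast cells from MC903-treated skin than in any library from untreated skin. They were chosen from the deposited counts by a rule on CPM (a gene's count per 1000000 counts of its library). A protein-coding gene was taken when its lowest CPM over the 9 MC903 libraries was at least 10 and at least 1.5 times its highest CPM over the 5 untreated libraries, and that highest value was 3 or more. Of 55487 genes in the table, 21903 were protein-coding and 4937 of these met both minimums, so the chosen genes were 0.425% of those that could have been taken. The rule left out Fcer1a, mitochondrially encoded genes, and cytosolic ribosomal and several respiratory chain families by name, and 4 genes that met its values were dropped that way (Fcer1a, Cox6b2, mt-Nd5 and mt-Nd6). The difference between treated and untreated libraries chose these genes, so it is given as a description and was not tested.

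Mast cells are granule-filled cells of skin and mucosa that bind IgE through a high-affinity receptor and release histamine, serotonin, proteases and cytokines when triggered. Those resident in skin are long-lived, and further ones can develop in inflamed tissue from progenitors that leave the bone marrow carrying integrin β7. MC903 (calcipotriol) is a vitamin D analogue that, painted on mouse skin, produces a dermatitis used as a model of atopic dermatitis. The chosen genes fall into several classes of known function. They include cell surface proteins, the enzyme that begins serotonin synthesis, a pair of aldo-keto reductases, proteins of the endoplasmic reticulum and proteins of DNA replication.

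The groups were resident mast cells of non-treated mice (libraries 1 to 5), resident mast cells of mice treated with MC903 (libraries 6 to 10), and mast cells of treated mice labelled as coming from bone marrow (libraries 11, 13, 14 and 15). The protocol speaks of resident and integrin β7-positive mast cells sorted from the ears, and this group is read here as its integrin β7-positive cells, called bone marrow cells below as in the labels. Each library came from a pool of at most 100 cells. Strain, age, genotype, dose and duration of treatment were not given in the sources used here, nor which mice gave which library. P-values therefore measure only the spread between these libraries, which may be technical in part.

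Total counts were 17706764 to 27068993 in untreated libraries, 13068078 to 25287381 in MC903 resident libraries and 19978811 to 31781926 in bone marrow libraries. The summed level of 10 mast cell markers was 84688 to 96091 CPM, 129816 to 154428 CPM and 101515 to 141480 CPM in the 3 groups, in the same order. Single markers did not all follow the sum. Cma1 and Tpsb2 lay above every untreated library in both treated groups. Ms4a2 was instead at 1658 to 2392, 802 to 1422 and 525 to 776 CPM in the 3 groups. Mcpt4 was at 11539 to 15343, 22125 to 27538 and 6904 to 9811 CPM. Hdc was at 8306 to 13061, 4988 to 7900 and 5405 to 11140 CPM. Markers of keratinocytes, fibroblasts and neutrophils summed to at most 39.5 CPM in any library and those of T cells to at most 76.1 CPM. Eosinophil markers summed to at most 64.5 CPM (resident library 7) and those of innate lymphoid and B cells to at most 154.8 CPM (bone marrow library 14). Basophil markers, of which mast cells share several, summed to 618 to 812, 779 to 944 and 409 to 1647 CPM in the 3 groups. The highest sum was that of bone marrow library 11. Among these markers Mcpt8 was at 9.14 to 36.6, 3.75 to 53.7 and 46.0 to 955 CPM. Whether basophils were present in the bone marrow libraries was not tested. Bone marrow library 15 stood apart in another list of markers. Its 8 macrophage and dendritic cell markers summed to 9726 CPM, while libraries 11, 13 and 14 held 5.47 to 262.7 CPM, with Lyz2 at 4774 CPM, C1qb at 2232 CPM and Csf1r at 1090 CPM. Over the other libraries the same markers summed to 25.1 to 70.4 CPM (untreated) and 42.0 to 140 CPM (MC903 resident). Of the chosen genes, 4 had their highest bone marrow value in library 15 (Ubac1, Uqcrq, Eva1b and Tmed3) and 8 their lowest. Calls of members and of the 3 pathway lists that changed without this library are given both ways below, and the part of these markers in them was not tested. The share of counts from mitochondrial genes was also higher in both treated groups, at 2.39% to 3.96% and 2.14% to 4.24% against 1.22% to 1.70% in untreated libraries. Its part in the values below was not tested either.

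Promoter sequences are shown for 4 members whose treated libraries stood furthest above the untreated ones and that the RefSeq table holds, as 250 bases before to 50 bases after that start, on GRCm38.p6. Capitals mark matches to the short motifs named after the sequences, and Adora2b held none. The windows are chr11:62248734-62249033 (plus strand) for Adora2b, chr12:36156776-36157075 (minus) for Bzw2, chr13:60936576-60936875 (minus) for Ctla2a and chr16:33793787-33794086 (plus) for Muc13. RefSeq lists 2 starts each for Ctla2a and Muc13, and the first was used, while the Bzw2 start lies inside the GENCODE span of the gene.
Adora2b: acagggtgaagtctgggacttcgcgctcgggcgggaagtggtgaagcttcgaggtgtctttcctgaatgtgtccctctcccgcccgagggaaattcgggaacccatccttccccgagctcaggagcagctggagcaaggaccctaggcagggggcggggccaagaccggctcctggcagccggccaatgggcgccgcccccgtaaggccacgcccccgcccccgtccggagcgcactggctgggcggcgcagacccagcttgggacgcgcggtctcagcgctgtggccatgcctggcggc
Bzw2: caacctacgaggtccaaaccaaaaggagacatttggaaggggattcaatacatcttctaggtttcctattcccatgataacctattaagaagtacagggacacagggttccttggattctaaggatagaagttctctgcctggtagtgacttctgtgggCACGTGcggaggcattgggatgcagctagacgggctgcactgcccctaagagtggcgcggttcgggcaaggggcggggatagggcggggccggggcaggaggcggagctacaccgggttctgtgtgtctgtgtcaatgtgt
Ctla2a: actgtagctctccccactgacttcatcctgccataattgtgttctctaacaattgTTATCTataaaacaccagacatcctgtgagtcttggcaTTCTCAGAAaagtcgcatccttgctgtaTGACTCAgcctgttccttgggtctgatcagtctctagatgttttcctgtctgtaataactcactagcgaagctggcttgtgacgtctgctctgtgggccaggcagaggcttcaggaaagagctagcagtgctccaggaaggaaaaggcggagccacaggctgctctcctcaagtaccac
Muc13: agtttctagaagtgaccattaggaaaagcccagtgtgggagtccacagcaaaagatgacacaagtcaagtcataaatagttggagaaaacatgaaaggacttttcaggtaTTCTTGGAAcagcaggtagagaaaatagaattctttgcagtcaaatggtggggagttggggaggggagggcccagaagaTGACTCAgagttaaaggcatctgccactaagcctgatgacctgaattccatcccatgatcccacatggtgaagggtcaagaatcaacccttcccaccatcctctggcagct
In Ctla2a and Muc13 the capitals mark the AP-1 motif TGACTCA (at -129 and -61 from the start) and a STAT-type motif, TTC and GAA with 3 bases between (at -157 and -140). Ctla2a also holds TTATCT, the reverse complement of the GATA motif AGATAA, at -195. In Bzw2 the capitals mark the E-box CACGTG at -91.

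RefSeq gave a promoter window for 18 of the 21 genes and none was used for Dtx4, Plxdc2 or Uqcrq. Searched on both strands, TGACTCA lay in 3 of the 18 windows (Ctla2a, Muc13 and Sec61b), which is 16.7%, against 3.38% of 6474 windows of expressed genes (protein-coding, with 10 CPM or more on average over the libraries) and 5.17% of all 27025 windows. CACGTG lay in 3 windows (Bzw2, Calr and Eva1b), or 16.7%, against 11.3% and 7.24%. The STAT-type motif lay in 2 windows, or 11.1%, against 6.70% and 8.47%. The ETS motif CCGGAAG lay in the windows of Prim1 and Ubac1, or 11.1%, against 21.7% and 9.12%. The GATA motif AGATAA lay in 1 window, or 5.56%, against 5.92% and 11.4%. Matches to the NF-kappaB, CRE and YY1 motifs were in none of the 18 windows and in 0.293%, 3.49% and 5.47% of the expressed ones. The STAT6 type of the STAT motif, with 4 bases between TTC and GAA, was in none of the 18 windows and in 5.08% of the expressed ones. The vitamin D receptor type of repeat, 2 copies of AGGTCA with 3 bases between, was in none of the 18. It was in 0.0% of the expressed windows and 0.0074% of all windows, so its absence from 18 windows says little. The windows had a median GC content of 55.3% and a median of 14.5 CpG dinucleotides, against 61.3% and 22 in expressed genes. These are letter matches in short windows and say nothing of which factor binds there.

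The ratio of the lowest MC903 library to the highest untreated library ran from 4.43 in Dtx4 to 1.51 in Mcm7, as plotted in the scatter of these extreme values. Just inside the limit stood Traf1 (1.56), Eva1b (1.55), Tmed3 (1.52), Sec61b (1.52) and Mcm7 (1.51). Just outside it stood Mcm5 (1.493), Dynlt1b (1.493), F2r (1.489), Erp29 (1.456) and Tsc22d4 (1.454), so the edge of the set separates genes with nearly equal values. Mcm5 encodes another subunit of the same helicase as Mcm7, and F2r encodes a thrombin receptor. The lowest treated library was a resident one for 15 members and a bone marrow one for 6, and untreated library 5 held the highest untreated value for 8. Membership depends on that library, since the rule gave 48 genes without it, of which 20 were among the 21. Membership also depends on the scaling, and 13 of the 21 met the rule when CPM used TMM-scaled library sizes. Those 13 were Dtx4, Adora2b, Bzw2, Ctla2a, Muc13, Akr1c12, Coro2a, Akr1c13, Calr, Ubac1, Tph1, Rad51ap1 and Traf1.

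**Figure D1:**
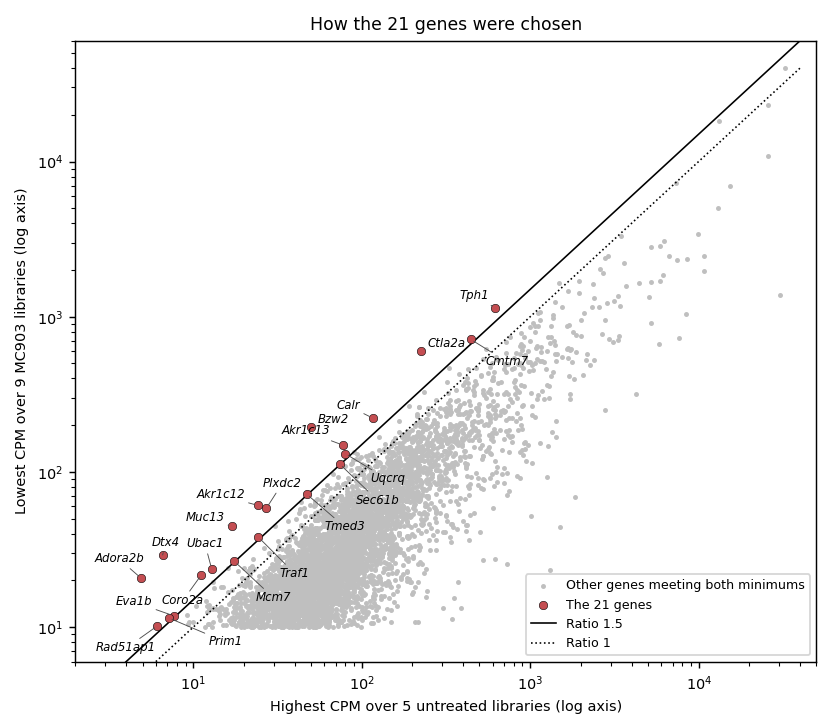
Each point is a protein-coding gene that met both minimums, with the highest CPM over 5 untreated libraries on the horizontal axis and the lowest CPM over 9 MC903 libraries on the vertical axis, both on log axes. The solid line is the ratio of 1.5 that chose the 21 named genes, and Mcm7, Sec61b and Tmed3 lie closest to it while Dtx4, Adora2b and Bzw2 lie furthest above it.

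Together the 21 genes took 0.154% ± 0.0103 (SD, n = 5) of the counts in untreated libraries, 0.626% ± 0.0785 (SD, n = 5) in MC903 resident libraries and 0.638% ± 0.113 (SD, n = 4) in bone marrow libraries. The ratio of mean CPM to untreated cells ran from 1.98 (Cmtm7) to 24.5 (Dtx4) in MC903 resident cells, with a median of 4.65. In bone marrow cells it ran from 2.65 (Cmtm7) to 63.2 (Adora2b), with a median of 6.68. On the log2 scale of the TMM-normalized fit, the members' median difference was 2.08 in MC903 resident cells and 2.72 in bone marrow cells, where the medians of all 21014 genes tested were 0.24 and -0.14. Both sets of ratios use the same untreated libraries. In these pooled samples, fewer cells that express a gene and less RNA of it per cell cannot be told apart.

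**Figure D2:**
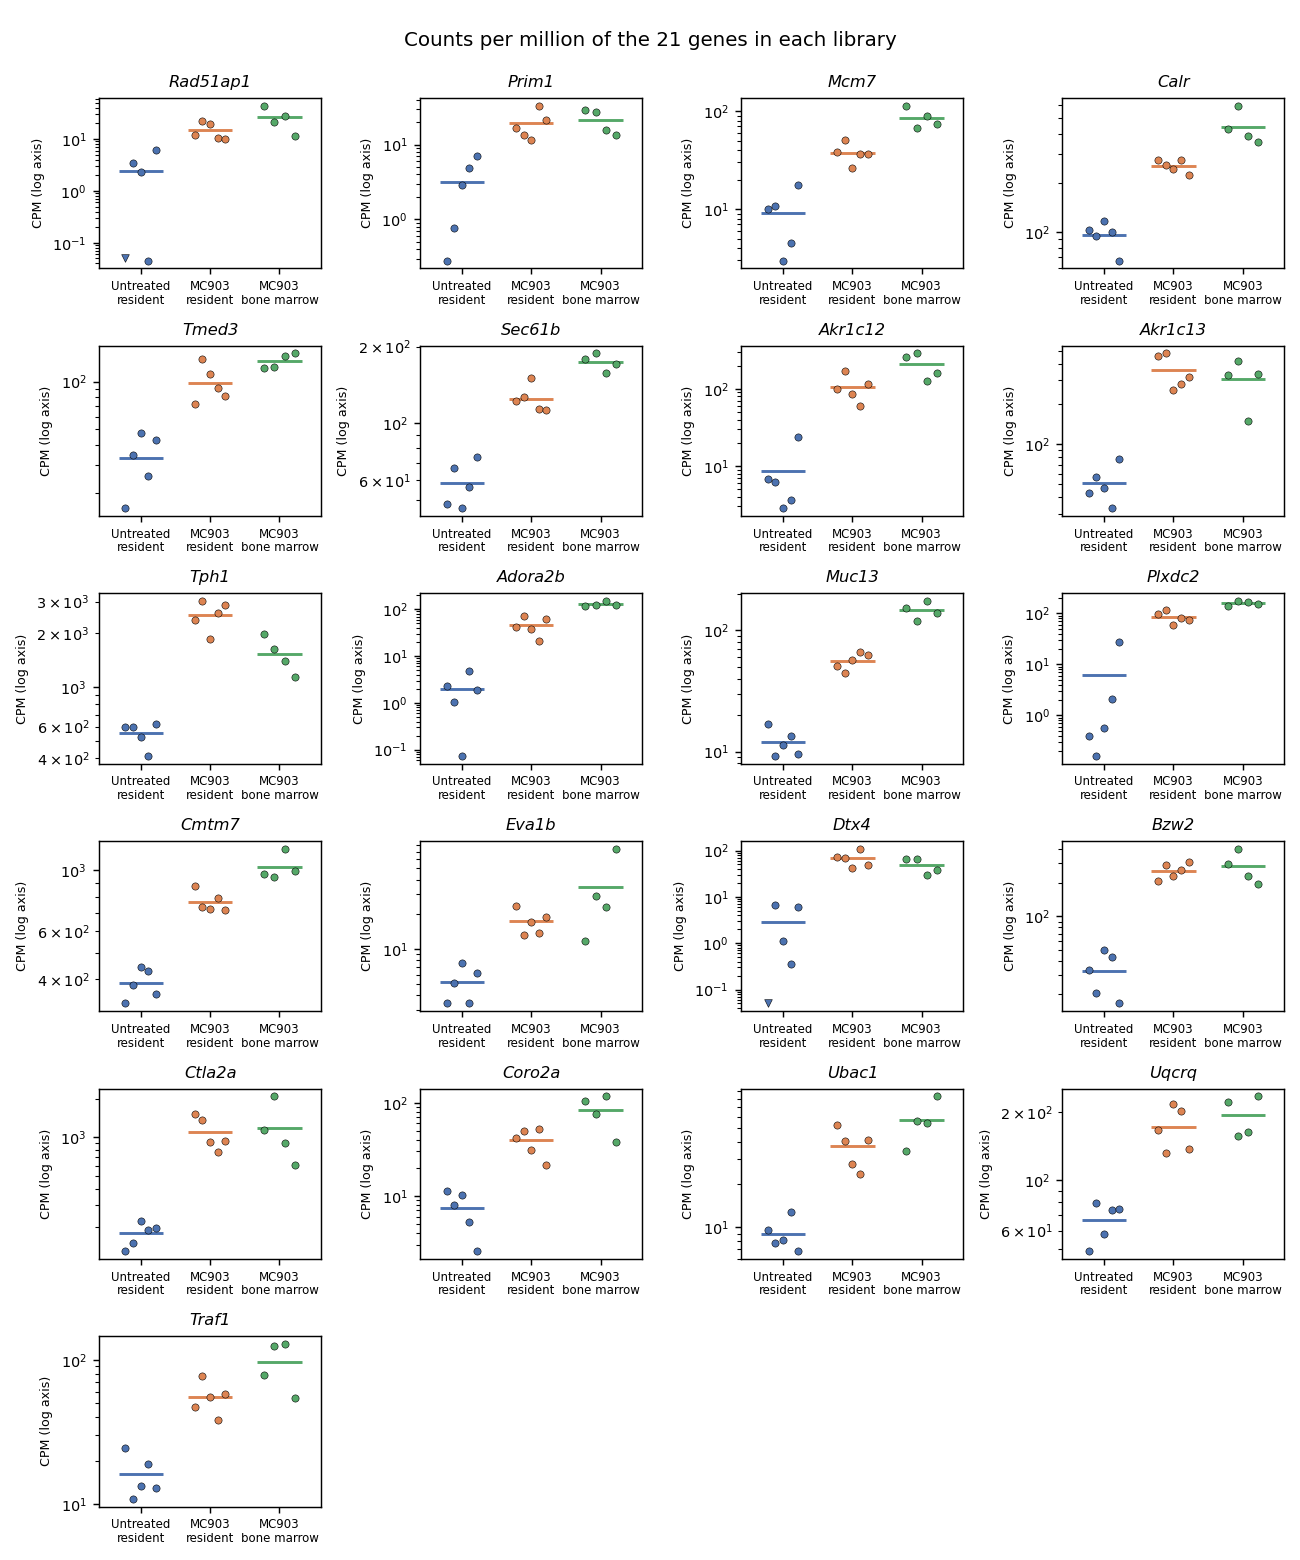
CPM of each of the 21 genes in each library, on log axes whose range differs between panels, with 1 point per library and a bar at the group mean. Blue points are untreated resident cells (n = 5), orange MC903 resident cells (n = 5) and green bone marrow cells (n = 4), and triangles drawn at the foot of the Dtx4 and Rad51ap1 panels stand for 0 counts in untreated library 1. In every panel the lowest treated point lies above the highest untreated point, as the rule requires.

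Of the genes, 5 encode proteins of the cell surface or of membranes (gene positions here are on GRCm38). Adora2b encodes the adenosine A2B receptor, a low-affinity G protein-coupled receptor that mast cells are known to carry (ENSMUSG00000018500.2, chr11:62248984-62266453, plus strand). Its level was 2.26, 1.04, 0.0739, 4.91 and 1.86 CPM in untreated libraries 1 to 5. It was 41.9, 70.8, 37.6, 20.7 and 61.1 CPM in MC903 resident libraries 6 to 10, and 117, 122, 151 and 123 CPM in bone marrow libraries 11, 13, 14 and 15. All bone marrow libraries lay above all resident ones, and group means were 2.03 ± 1.81 (SD, n = 5), 46.4 ± 19.8 (SD, n = 5) and 128 ± 15.1 CPM (SD, n = 4). Muc13, a transmembrane mucin best known from gut epithelium (ENSMUSG00000022824.12, chr16:33794037-33819934, plus strand), showed the same order. It was at 17.1, 9.23, 11.3, 13.4 and 9.55 CPM in untreated, 51.1, 44.5, 57.1, 66.6 and 62.6 CPM in MC903 resident, and 154, 120.3, 175 and 140.1 CPM in bone marrow libraries. Each group was tight, and no value of any group fell within the range of another. An annotated antisense gene, Gm15657, overlaps 184 bases of Muc13 exons and was itself at means of 3.41, 10.2 and 13.5 CPM in the 3 groups. The strand setting of the counting is not given in the sources used here, so reads in that overlap cannot be assigned.

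Plxdc2, a single-pass membrane protein with a plexin-like domain (ENSMUSG00000026748.13, chr2:16356304-16755839, plus strand), was nearly absent from most untreated libraries. They held 0.395, 0.161, 0.554, 2.05 and 27.2 CPM, so library 5 alone set the untreated mean of 6.07 ± 11.8 CPM (SD, n = 5). MC903 resident libraries held 97.6, 115, 58.4, 81.9 and 72.4 CPM and bone marrow libraries 139, 174, 169 and 149 CPM. Without library 5 its highest untreated value falls below the minimum of 3 CPM and the gene leaves the set. Cmtm7, a small multi-pass membrane protein of the chemokine-like factor family (ENSMUSG00000032436.17, chr9:114756836-114781856, minus strand), had the smallest ratios of the 21. Its means were 387 ± 49.8 (SD, n = 5), 767 ± 66.8 (SD, n = 5) and 1025 ± 116 CPM (SD, n = 4). The ranges were 327 to 444, 715 to 874 and 945 to 1197 CPM, with no overlap between any groups. The antisense gene Gm9888, at means of 8.97 to 11.6 CPM, overlaps 168 bases of its exons. Eva1b, a small membrane protein (ENSMUSG00000050212.4, chr4:126147744-126149875, plus strand), was at 3.39 to 7.65 CPM in untreated and 13.3 to 23.8 CPM in MC903 resident libraries. Its bone marrow libraries spread widely, at 11.8, 28.6, 23.3 and 74.3 CPM, with library 15 highest. Its bone marrow mean was 34.5 ± 27.4 CPM (SD, n = 4), and 21.2 ± 8.58 CPM (SD, n = 3) without that library.

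Tph1 and the aldo-keto reductase pair are the metabolic enzymes of the set. Tph1 encodes tryptophan hydroxylase 1, the rate-limiting enzyme of serotonin synthesis outside the brain (ENSMUSG00000040046.14, chr7:46644641-46672537, minus strand). It was at 594, 595, 528, 412 and 622 CPM in untreated, 2365, 3022, 1858, 2589 and 2854 CPM in MC903 resident, and 1966, 1631, 1397 and 1142 CPM in bone marrow libraries. It was 1 of only 3 members with a higher mean in MC903 resident than in bone marrow cells, with Dtx4 and Akr1c13, and the ranges of the treated groups overlapped in library 8 and library 11. Akr1c12 and Akr1c13 encode neighbouring cytosolic reductases of steroids and other carbonyl compounds on chromosome 13 (ENSMUSG00000021211.4, chr13:4268176-4279433, minus strand, and ENSMUSG00000021213.12, chr13:4191150-4205596, plus strand). Akr1c12 was at 6.83, 6.14, 2.84, 3.59 and 24.1 CPM in untreated, 99.0, 173, 84.9, 60.9 and 116 CPM in MC903 resident, and 256, 289, 126 and 159 CPM in bone marrow libraries. Akr1c13 was at 42.7, 56.4, 46.6, 33.1 and 77.1 CPM, at 458, 478, 255, 282 and 319 CPM, and at 327, 416, 149 and 335 CPM in the same order. For both genes the highest untreated library was library 5, and the treated groups overlapped. The 2 genes share sequence, and 28.6% of the 50-base stretches of Akr1c12 transcripts also occur in Akr1c13, so the division of reads between them is uncertain. Their summed level does not depend on that division, and was 59.9 ± 24.9 CPM (SD, n = 5) in untreated, 465 ± 137 CPM (SD, n = 5) in MC903 resident and 514 ± 181 CPM (SD, n = 4) in bone marrow cells.

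Calr, Sec61b and Tmed3 act in the endoplasmic reticulum and early secretory pathway. Calr encodes calreticulin, a calcium-binding chaperone of glycoproteins (ENSMUSG00000003814.8, chr8:84841850-84846934, minus strand). It was at 103, 94.9, 116, 100.4 and 66.7 CPM in untreated, 276, 259, 243, 277 and 222 CPM in MC903 resident, and 429.9, 598, 387 and 356 CPM in bone marrow libraries. The 3 groups did not overlap, and library 13 was the highest of the bone marrow libraries. Sec61b, a subunit of the channel through which new proteins enter the endoplasmic reticulum (ENSMUSG00000053317.11, chr4:47474658-47483242, plus strand), was at 46.5 to 74.0, 113 to 150.1 and 158 to 188 CPM in the 3 groups. Sec61b shares 17.4% of its 50-base stretches with other genes, most of them with Gm10320, which was at means of at most 1.05 CPM. Tmed3, a p24-family cargo receptor of vesicles between endoplasmic reticulum and Golgi (ENSMUSG00000032353.9, chr9:89699206-89705068, minus strand), was at 15.9 to 47.2, 71.9 to 138 and 122 to 151 CPM.

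The 3 genes of DNA replication and repair were low in untreated cells, at means of 9.19 (Mcm7), 3.18 (Prim1) and 2.42 CPM (Rad51ap1). Mcm7, a subunit of the replicative helicase (ENSMUSG00000029730.16, chr5:138164583-138172422, minus strand), was at 10.1, 10.8, 2.99, 4.55 and 17.5 CPM in untreated libraries. It was at 38.6, 50.1, 26.6, 36.9 and 36.5 CPM in MC903 resident and 113, 67.1, 89.4 and 73.0 CPM in bone marrow libraries, again with no overlap between the treated groups. Of its 50-base stretches 23.3% occur in other genes, chiefly the pseudogene Gm5487, and 321 bases of its exons overlap Ap4m1 and 64 overlap Cops6 on the opposite strand. Ap4m1 was itself at means of 1.34, 9.54 and 9.47 CPM and Cops6 at 56.1, 85.2 and 86.2 CPM in the 3 groups, and reads in the overlaps cannot be assigned. Prim1, the catalytic subunit of primase (ENSMUSG00000025395.14, chr10:128015168-128030037, plus strand), was at 0.282 to 7.14 CPM in untreated, 11.5 to 33.2 CPM in MC903 resident and 13.5 to 29.4 CPM in bone marrow libraries. Rad51ap1, which aids homologous recombination (ENSMUSG00000030346.16, chr6:126923050-126939587, minus strand), had 0 counts in untreated library 1, which allows up to 0.169 CPM there for counting error alone (a limit of 3 counts). It was at most 6.13 CPM in the other untreated libraries, at 10.2 to 21.9 CPM in MC903 resident and at 11.7 to 44.1 CPM in bone marrow libraries.

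Dtx4, of the Deltex family of E3 ubiquitin ligases linked to Notch signalling (ENSMUSG00000039982.8, chr19:12466338-12501454, minus strand), had the largest ratio of the set in MC903 resident cells. Untreated libraries held 0, 6.58, 1.11, 0.364 and 5.98 CPM. MC903 resident libraries held 71.5, 70.0, 42.2, 110.0 and 49.7 CPM and bone marrow libraries 66.2, 64.5, 29.2 and 37.8 CPM, so the treated groups overlapped. Bzw2, a regulator of translation initiation (ENSMUSG00000020547.5, chr12:36091835-36158080, minus strand), rested at 16.6 to 49.8 CPM in untreated libraries and reached 208 to 306 CPM and 195 to 406 CPM in the treated groups. Other genes share 12.3% of the 50-base stretches of Bzw2. Ppp2r5a, the one sharing most (7.39%), was at means of 41.9, 42.5 and 54.9 CPM in the 3 groups. Ctla2a encodes an inhibitor of cathepsin-like cysteine proteases (ENSMUSG00000044258.10, chr13:60934155-60936625, minus strand). It was at 131, 152, 224, 191 and 198 CPM in untreated, 1509, 1360, 925, 777 and 946 CPM in MC903 resident, and 1150, 2090, 909.6 and 606 CPM in bone marrow libraries. The treated groups overlapped in Bzw2 and in Ctla2a, and in both the bone marrow range was the wider one. Of the 50-base stretches of Ctla2a 25.8% occur in other genes, and Gm49391, the one sharing most, was counted at 0 in each group. Gm49391 overlaps 343 bases of Ctla2a exons on the same strand and Gm49393, also at 0, overlaps 44. Reads in these overlaps cannot be assigned and may be missing from the counts of Ctla2a.

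Traf1, an adaptor of tumour necrosis factor receptors (ENSMUSG00000026875.14, chr2:34941750-34961772, minus strand), was at 10.9 to 24.3, 38.0 to 77.1 and 54.4 to 129 CPM in the 3 groups. Coro2a, an actin-binding coronin (ENSMUSG00000028337.14, chr4:46536937-46602202, minus strand), was at 2.56 to 11.2, 21.7 to 52.1 and 37.6 to 117 CPM. Ubac1, a subunit of a ubiquitin ligase (ENSMUSG00000036352.16, chr2:25998543-26021747, minus strand), was at 6.79 to 12.9, 23.7 to 52.5 and 34.3 to 83.3 CPM. In these 3 genes the treated groups overlapped. Gm16731 on the opposite strand overlaps 329 bases of Coro2a and was at means of at most 0.121 CPM, so as with Muc13 and Cmtm7 reads there cannot be assigned. Uqcrq, a small subunit of respiratory complex III (ENSMUSG00000044894.14, chr11:53427922-53430831, minus strand), was at 48.7 to 79.7 CPM in untreated, 131 to 216 CPM in MC903 resident and 156 to 235 CPM in bone marrow libraries, and it carries a name that the rule's list of respiratory chain families did not cover.

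Levels can be compared between genes only per length, here as counts per kilobase of exon scaled to 1000000 in each library (TPM). On that scale the highest member means in MC903 resident cells were Ctla2a at 818 ± 324 (SD, n = 5), Tph1 at 650 ± 225 (SD, n = 5), Akr1c13 at 396 ± 167 (SD, n = 5) and Cmtm7 at 341 ± 72.5 TPM (SD, n = 5). The spreads of neighbours in that order overlap. The lowest was Rad51ap1 at 4.71 ± 2.10 TPM (SD, n = 5). Among 8016 expressed genes the members' median percentile of TPM was 29.1 in untreated, 80.2 in MC903 resident and 87.7 in bone marrow cells. The members' median coefficient of variation was 35.3%, 26.5% and 33.1% in the 3 groups, against 31.3%, 29.7% and 37.3% for expressed genes. The rule set limits on the extreme values of these same libraries, so these percentiles and spreads are a description only.

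Whether the members differed between the treated populations was asked with the counts of all genes, because the rule treated the 9 MC903 libraries alike. Muc13 and Calr were higher in the bone marrow cells and none of the 21 was called lower (edgeR quasi-likelihood test, Benjamini-Hochberg adjusted over 21014 genes). Across all genes tested 1.32% were called higher and 0.952% lower. The log2 difference was 1.53 ± 0.250 (SE) for Muc13 (edgeR adjusted p = 0.00158, higher in 4 of 4 bone marrow libraries than in any resident one) and 0.97 ± 0.198 (SE) for Calr (edgeR adjusted p = 0.0093, likewise in 4 of 4). Muc13 was called in all 14 fits that each left out 1 library, while Calr was lost without bone marrow library 13 (edgeR adjusted p = 0.0796). At an unadjusted edgeR p under 0.05 there were 12 members higher and 1 lower, Tph1, where 7.04% of all genes tested were higher and 10.6% lower.

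The sign of the difference was positive in 18 of the 21, with a median log2 difference of 0.79. The median was -0.28 for all genes tested and 0.18 for 8011 protein-coding genes that averaged 10 CPM or more. Bone marrow libraries 11, 13 and 14 had counts for 16025 to 19817 genes, against 22632 to 35246 in MC903 resident libraries and 32814 in library 15, and the part of this in the medians was not tested. With DESeq2 size factors these 3 medians were 0.65, -0.43 and 0.04, and again 18 members were positive. Of the members, 7 were higher in every bone marrow library than in every resident one (Adora2b, Muc13, Plxdc2, Calr, Cmtm7, Sec61b and Mcm7), none was lower in all, and 14 overlapped. Over all genes tested 2.73% were higher without overlap and 5.23% lower. Without library 15 the members' count was 9, with Coro2a and Traf1 added, where 4.06% of all genes were higher without overlap.

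Adora2b had the largest difference, 1.65 ± 0.586 (SE) on the log2 scale, and did not pass the threshold (edgeR adjusted p = 0.156). Mcm7 stood at 1.35 ± 0.400 (SE, edgeR adjusted p = 0.0883), Coro2a at 1.27 ± 0.390 (SE, edgeR adjusted p = 0.0982) and Traf1 at 1.02 ± 0.305 (SE, edgeR adjusted p = 0.0916). Without bone marrow library 15, the one with macrophage markers, Coro2a and Traf1 passed, with log2 differences of 1.53 and 1.23 (edgeR adjusted p = 0.0242 for each). Eva1b was at 1.13 ± 0.487 (SE, edgeR adjusted p = 0.231) and at 0.48 without that library (edgeR adjusted p = 0.578). Cmtm7 and Sec61b, whose groups were tight, differed by 0.58 ± 0.164 (SE, edgeR adjusted p = 0.0688) and 0.65 ± 0.201 (SE, edgeR adjusted p = 0.0973). Over the 21 alternatives, Mcm7 was called in 5, Adora2b in 4 (both with only the treated groups fitted, with no filter on low values and without library 3, among others), Cmtm7 and Coro2a in 3, Sec61b, Traf1 and Plxdc2 in 2, and Akr1c12 in 1. The limma fit with voomWithQualityWeights was one of them for each of these 8 genes.

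Tph1 was the member with the lowest value, -0.56 ± 0.206 (SE, edgeR adjusted p = 0.158), and it was called lower in 4 of 7 other ways of fitting (testing all genes unfiltered, testing only those averaging 10 CPM or more, TMM factors from genes of at least 10 CPM, and the DESeq2 Wald test). Dtx4 at -0.32 ± 0.888 (SE, edgeR adjusted p = 0.893) and Akr1c13 at -0.04 ± 0.289 (SE, edgeR adjusted p = 0.963) were the others below 0. The wide error of Dtx4 leaves the size and direction of its difference unsettled. Plxdc2, which has no overlap between the treated groups, had a large error as well (1.07 ± 1.13, SE, edgeR adjusted p = 0.678), and it was called when the untreated libraries were left out of the fit.

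**Figure D3:**
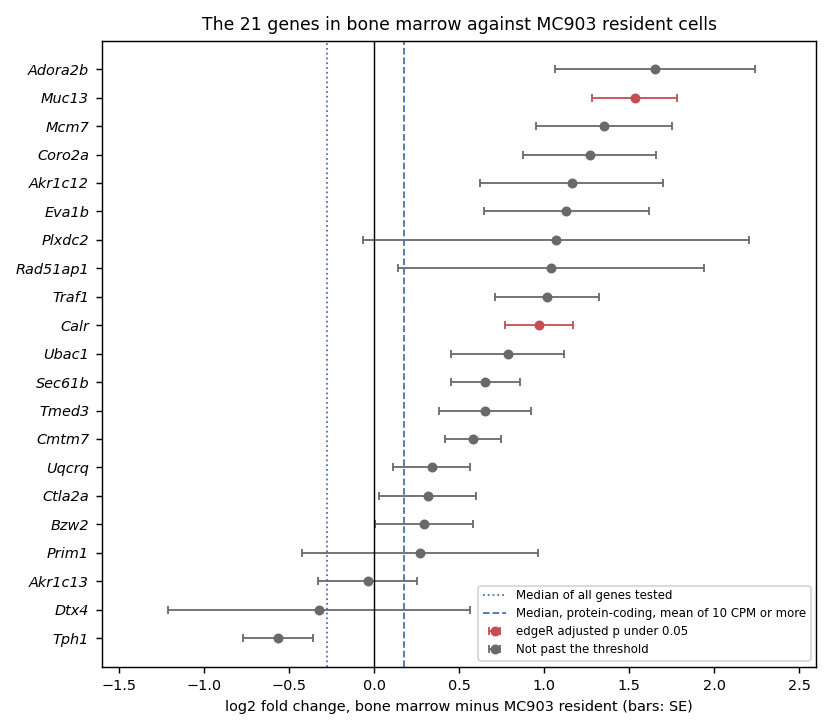
Log2 difference of each of the 21 genes between bone marrow (n = 4) and MC903 resident cells (n = 5), with bars for the standard error. Red points passed an edgeR adjusted p of 0.05 (Muc13 and Calr), the dotted line is the median of all genes tested at -0.28 and the dashed line that of expressed protein-coding genes at 0.18, and 18 of the points lie above 0.

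The further genes of 3 pathways that the members belong to were then followed through the same fit. These lists are not independent of the members, because they were built around them. Other lists, which hold no member, moved as well in bone marrow against MC903 resident cells. There 7 of 18 glycolysis genes were called higher and 0 lower (median log2 difference 0.71). Of 31 actin cytoskeleton genes 5 were called higher and 0 lower (0.52), and of 18 immediate early genes 2 higher and 3 lower (-0.29). Over all genes tested 1.32% were called higher and 0.952% lower. Such calls were therefore not particular to the 3 lists. The comparisons with untreated cells share those libraries, and over all genes tested 0.571% were called higher and 1.68% lower in MC903 resident cells, and 3.49% higher and 3.37% lower in bone marrow cells. For reference, 3.31% of all genes tested lay above every untreated library in MC903 resident cells without overlap, and 5.48% did so in bone marrow cells.

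Genes of the endoplasmic reticulum and secretory pathway were followed for Calr, Sec61b and Tmed3. Of the 27 besides Calr and Sec61b, 16 were called higher and 0 lower in bone marrow against untreated cells (median log2 difference 0.94, against -0.14 for all genes), with 0 lower at an unadjusted p also. At that unadjusted p 9.76% of all genes tested were higher and 11.5% lower. The 16 were Creld2, Dad1, Ddost, Hsp90b1, Manf, Ostc, Pdia3, Pdia4, Pdia6, Rpn1, Rpn2, Sdf2l1, Spcs2, Spcs3, Ssr2 and Ssr4, led by Sdf2l1 at 2.35 and Pdia4 at 2.07 on the log2 scale. In bone marrow against MC903 resident cells 8 were called higher and 0 lower, again with 0 lower at an unadjusted p. The median there was 0.58, against -0.28 for all genes and 0.18 for protein-coding genes averaging 10 CPM or more. The 8 were Pdia4, Pdia6, Creld2, Sdf2l1, Hspa5, Rpn2, Ddost and Ssr2, that is chaperones and disulfide isomerases, subunits of the oligosaccharyl transferase and a subunit of the translocon-associated complex. Pdia4, a disulfide isomerase, had the largest difference, 1.66 ± 0.253 (SE, edgeR adjusted p = 0.000839). In MC903 resident against untreated cells 0 of the 27 were called higher by edgeR, 11 were higher at an unadjusted p under 0.05 (6.07% of all genes were, and 6.56% were lower), and the median was 0.36, against 0.24 for all genes. Hspa5, which encodes the chaperone BiP, was called lower there by 1.03 ± 0.227 (SE) on the log2 scale (log2 difference -1.03, edgeR adjusted p = 0.0145). The count of 0 higher changed with the scaling, to 5 with DESeq2 size factors and 8 with TMM factors from genes of at least 10 CPM. It was 3 when library 15 was left out and 24370 genes were tested. Calls over all genes moved too, from 0.571% higher to 0.985%, 1.19% and 0.624% of those tested. The list's count in bone marrow against MC903 resident cells was 3 and 4 under those scalings and 10 without library 15, where 0.795%, 0.847% and 1.35% of all genes were called higher.

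Genes of proliferation besides Mcm7 numbered 16. Against untreated cells 7 were called higher in bone marrow cells and 0 lower, with 1 lower at an unadjusted p (edgeR). With DESeq2 size factors or TMM factors from genes of at least 10 CPM 8 were higher and 1 lower (Pcna), and without library 15 8 were higher. Over all genes tested 3.61%, 4.03% and 2.95% were called higher under these 3 settings, and 3.64%, 3.45% and 3.41% lower. The 7 were Rrm2, a subunit of ribonucleotide reductase, at a log2 difference of 5.61, Top2a, a topoisomerase of dividing cells, at 3.45, the helicase subunits Mcm5, Mcm2, Mcm6 and Mcm3 at 2.81, 2.74, 2.54 and 1.06, and Stmn1, a microtubule regulator, at 1.35. Mcm5 was the gene called higher in MC903 resident cells, by 1.93 ± 0.405 (SE, edgeR adjusted p = 0.01), and Pcna, the sliding clamp of DNA polymerase, was called lower there (log2 difference -1.11, edgeR adjusted p = 0.0367). That lower call was lost under both other scalings. The list's median was 1.54 in MC903 resident cells and 2.74 in bone marrow cells, against 0.24 and -0.14 for all genes. Between the treated groups Mcm6 and Mcm3 were called higher in bone marrow cells, with log2 differences of 1.84 ± 0.340 (SE, edgeR adjusted p = 0.0042) and 0.93 (edgeR adjusted p = 0.0323), and 0 lower, with 0 lower at an unadjusted p. That count was 1 with DESeq2 size factors and 3 without library 15.

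Genes of mitochondrial protein import and of complexes II and III were listed around Uqcrq. Of 33 tested, 2 were called higher in MC903 resident cells (Uqcr10 and Tomm5, the latter by 1.10 on the log2 scale, edgeR adjusted p = 0.0286 and 0.0267), and 3 without library 15, with Timm13 added. With DESeq2 size factors or TMM factors from genes of at least 10 CPM 4 were called higher, with Timm13 and Uqcr11 added. Over all genes 0.985% and 1.19% were called higher under these scalings, and 0.624% without library 15. In bone marrow cells 5 were called higher against untreated cells (Uqcr11, Timm13, Uqcrc1, Uqcr10 and Tomm5, the last lost without library 15) and 2 against MC903 resident cells (Sdha at 0.87 and Uqcrc1 at 0.77). The last count fell to 0 with DESeq2 size factors and to 1 without library 15. The list medians were 0.20, 0.42 and 0.31, against 0.24, -0.14 and -0.28 for all genes. For the last comparison, protein-coding genes averaging 10 CPM or more had a median of 0.18, nearer to that of the list.

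**Figure D4:**
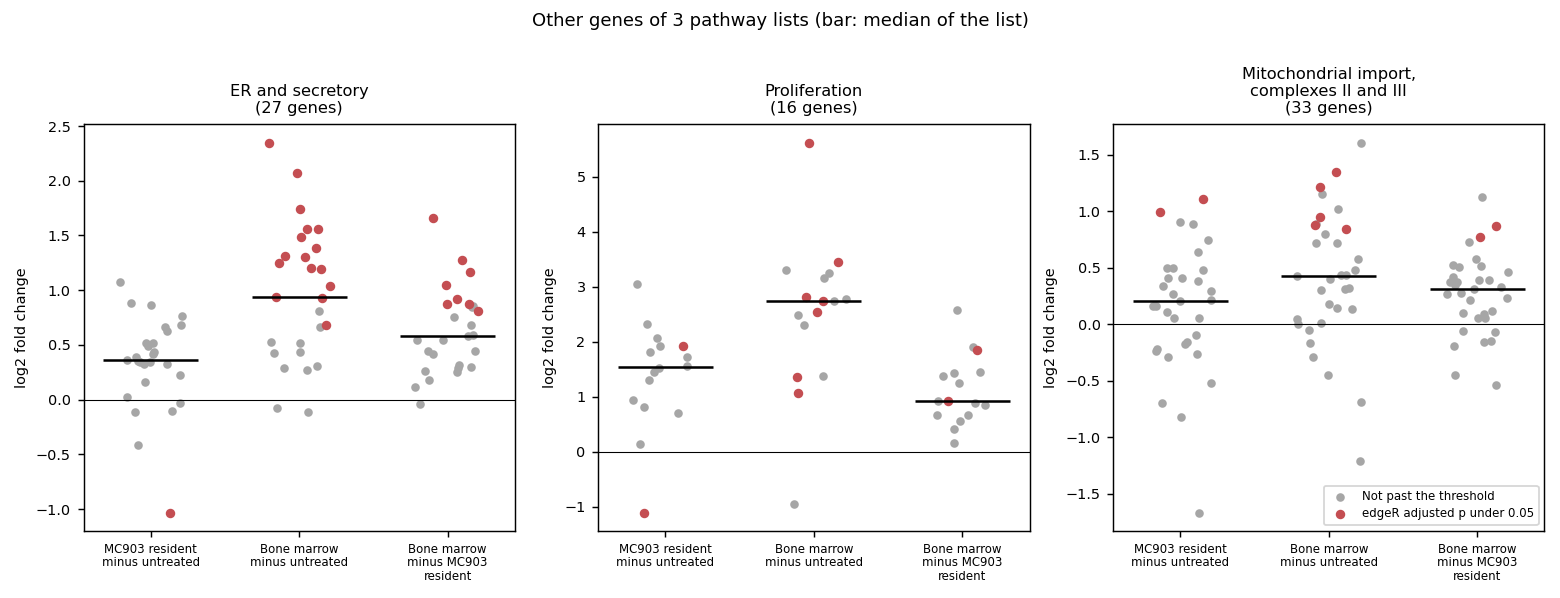
Log2 differences of the other genes of 3 lists (27, 16 and 33 genes) in the 3 comparisons, with a bar at each list's median and a separate vertical scale in each panel. Red points passed an edgeR adjusted p of 0.05, and the endoplasmic reticulum list has 0, 16 and 8 red points above 0 from left to right.

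The rule used neither gene structure nor position. Members had a median exonic length of 3038 bases (1261 to 8819), against 4663 bases for 8016 expressed genes (quartiles 2947 and 7138). The gene with the longest exonic sequence was Traf1 and the shortest Akr1c12. The transcript with most exons had a median of 9 exons against 10, and median GC content was 50.2% against 49.3%. Chromosomes 2, 4 and 13 carried 3 members each. The share on chromosome 13 was 14.3% against 3.64% of expressed genes, with Akr1c12 and Akr1c13 as near neighbours there and Ctla2a apart from them.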

How the data were processed

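RNA sequencing counts were used from 14 libraries of sorted mouse mast cells, made with SMART-Seq HT and Nextera XT per the labels' protocols. The authors' deposited table holds whole-number read counts for each gene, with no normalization. STAR, featureCounts and mm10 are named in the submitters' processing notes, and their versions and the strand setting are not given in the sources used here. All 14 columns were used. Of the gene identifiers, 55394 received a symbol from GENCODE M21, and 55094 had the same version and coordinates there, so gene positions are on GRCm38.

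Levels are CPM from the column totals. For tests, filterByExpr by group (minimum count 10, minimum total 15) kept 21014 genes, all 21 members among them. A model of 3 groups was fitted to all libraries with TMM factors in edgeR 4.0.16 (R 4.3.3, robust quasi-likelihood test, common dispersion 1.33) and adjusted by the Benjamini-Hochberg method, with 0.05 as the threshold. The standard error is the absolute log2 difference over the square root of F. The protocol names no molecular identifiers, so reads are not separate molecules and the limit behind a count of 0 covers counting error only. The named genes are all members, the 5 just outside the limit, and the called genes of the 3 lists. The members and lists were chosen with earlier results of these data known. Alternatives included DESeq2 1.42.0 and limma 3.58.1 with voomWithQualityWeights.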

Additional observations from a re-analysis of the deposited data

Results flagged for a closer look

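Of 63 groups of libraries (21 genes in 3 groups), 3 held a library far from the others of its group. Chance gives about 1 in 20 groups, so the number flagged is close to that share. Adora2b was at 150.6 CPM in bone marrow library 14, against 117 to 123 CPM in the other 3. Akr1c12 was at 24.1 CPM in untreated library 5, against 2.84 to 6.83 CPM in the other 4. Plxdc2 was at 27.2 CPM in untreated library 5, against 0.161 to 2.05 CPM in the other 4. The last pair of values comes from 1 library, which also held the highest untreated value of 8 members. Its summed mast cell markers, 96091 CPM, were the highest of the untreated libraries.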

How the results depend on the processing

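The number of genes meeting the rule was 21. It was 13 with TMM-scaled CPM, 7 at a ratio of 2, 53 at a looser ratio, and 23 to 48 when each library was left out (48 without library 5). With DESeq2 size factors it was 16, of which 15 were among the 21. The count of members called higher in bone marrow than in MC903-treated resident cells was 2. It was 6 without the filter on low counts, 5 with only those groups fitted, 10 with limma voomWithQualityWeights (0.954%, 1.03% and 3.2% of all genes tested, against 1.32%), and 1 (without library 13) to 4 (without library 3, 5 or 15) when each library was left out, where without library 13, 3, 5 and 15 the genes called higher numbered 150 of 24598, 252 of 20105, 344 of 20208 and 328 of 24370. The count called lower was 0, and it was 1 (Tph1) without the filter, with a filter at a mean of 10 CPM, with TMM factors from genes of at least 10 CPM and with the DESeq2 Wald test, and 0 with voomWithQualityWeights (0.584%, 3.57%, 1.21%, 6.03% and 6.4% of all genes were called lower, against 0.952%). The log2 difference changed sign for Bzw2 (-0.00066 without library 13, up to 0.46 over the libraries left out), Ctla2a (-0.18 to 0.55) and Akr1c13 (-0.28 to 0.19 over libraries left out, and 0.015 without the filter). None of these 3 was called under any fit. The cause of these changes was not tested.

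The lists also moved. With DESeq2 size factors, TMM factors from genes of at least 10 CPM, and without library 15 (alternatives chosen after seeing the data), endoplasmic reticulum genes called higher in MC903 resident against untreated cells went from 0 to 5, 8 and 3. In bone marrow against MC903 resident cells they went from 8 to 3 and 4 under the scalings, while higher calls over all genes fell from 277 to 167 and 178. Proliferation genes went from 1 to 2 with the second scaling in the first of these comparisons, and from 2 to 1 under both in the other. Mitochondrial genes went from 2 to 4 under both scalings, and from 2 to 0, 1 and 1. No paired analysis was possible because the labels give no replicate numbers shared between groups.

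With 4 or 5 libraries a group, Plxdc2, Rad51ap1, Dtx4 and Prim1 had the largest standard errors of the 21 (1.13, 0.901, 0.888 and 0.694), and each had untreated libraries under 1 CPM. No difference between the treated groups was called in them by the edgeR test with 3 groups, which does not show that there was none.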
